A study of Saccharomyces cerevisiae with 18 samples.

Results

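The 31 genes described here encode proteins of the small (40S) ribosomal subunit of budding yeast, Saccharomyces cerevisiae, and carry an intron listed in the deposited intron tables. They were taken by name, as the rows that start with RPS and a digit, without RPS9A, RPS9B, RPS14A, RPS14B and RPS22B, and make up 31 of the 284 intron hosts listed. The hosts also include 52 genes of the large (60S) subunit and 201 others. The 31 genes form 15 A/B paralog pairs, among them RPS0, RPS4, RPS6, RPS7, RPS10, RPS16, RPS18, RPS19, RPS21, RPS23, RPS24, RPS27 and RPS30, and RPS13, which has no paralog in the tables. All 31 passed every filter on low reads.

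RNA was compared in 2 haploid strains of BY4742 background in which the GAL1 promoter drives 1 spliceosome gene, SNU114 (YKL173W) in the Snu114 strain and DIB1 (YPR082C) in the Dib1 strain. Per the labels both strains are mating type alpha and carry his3Δ1, leu2Δ0, met15Δ0 and ura3Δ0. The Snu114 strain also carries lys2Δ0, and the Dib1 strain is LYS2. Cells were grown in glucose medium (YPD), which shuts the promoter off, for 4 h or for 8 h, and control cells were kept in galactose medium (YPGal), in which it is on, for 6 h. Each of the 6 groups had 3 libraries. The glucose cultures differ from the galactose ones in the transcript of the targeted gene, in the sugar and in the hours in the medium. Those causes cannot be told apart in any comparison with galactose. Snu114 is a large GTP-binding protein that belongs to the U5 snRNP, and Dib1 is a small protein of the U4/U6.U5 tri-snRNP, the particle that brings both into the spliceosome before its activation.

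Yeast has few introns, and many of them lie in ribosomal protein genes, which are transcribed so heavily that their transcripts form a large share of what the spliceosome processes. A yeast intron is recognised by a 5′ splice site, most often GTATGT, by a branch site, most often TACTAAC, and by a 3′ splice site that ends in AG. Most yeast ribosomal proteins are encoded by a pair of paralogs from an ancient genome duplication, which code for nearly the same protein but have introns of unlike sequence.

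The libraries held 17065989 to 58615022 gene reads and 96655 to 1536697 intron reads. The 31 genes had 2862 to 63141 gene reads and 88 to 30299 intron reads in a library, and the lowest, 88 for RPS4B, has an exact 95% Poisson interval of 70.6 to 108, which covers counting error only. SNU114 had 1130 to 1501 normalised counts in the glucose libraries of the Snu114 strain, against 159504 to 186566 in its galactose libraries. DIB1 had 244 to 283 normalised counts in the glucose libraries of the Dib1 strain, against 117804 to 127214 in its galactose libraries. In the strain where the GAL1 promoter does not drive it, SNU114 had 2428.5 to 3546 normalised counts and DIB1 971 to 1470. The galactose libraries thus held the driven gene's transcript far above the other strain's level, and the glucose libraries held it below that level. Transcripts of STE2, the alpha-factor receptor that marks a cells, stood at 106 to 190 normalised counts in the Snu114 strain and at 12594 to 22609 in the Dib1 strain, while STE3, the a-factor receptor that marks alpha cells, stood at 4539 to 10136 in the Snu114 strain and at 56.7 to 355 in the Dib1 strain. The Dib1 libraries thus went against their labelled mating type, and this difference between strains is part of every strain comparison below.

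Among the introns themselves, each of the 31 genes had 1 intron in the R64 annotation, the assembly also called sacCer3. They were 256 to 551 bases long with a median of 401, against a median of 116 for the 247 annotated introns of the other hosts that start with G and end with AG, the set behind the shares given below for the others. The first exon held 3 to 144 bases of coding sequence, with a median of 24. The 5′ site was GTATGT in 22 of the 31 introns (71.0%, against 73.7% of those others), GTACGT in 6, among them RPS19A, RPS19B, RPS21B, RPS30A and RPS30B, and GTATGA in 3, among them RPS6A. The branch motif TACTAAC, sought on the gene's own strand, was found in 30 of the 31 (96.8%, against 81.4% of the others) and not in RPS21A.

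The 5′ ends of the introns that the results turn on are printed below, 10 exon bases followed by 25 intron bases with the first 6 intron bases in capitals. RPS4A, RPS4B, RPS21B and RPS23A had among the largest responses, RPS13 and RPS27A among the smallest, and RPS6, RPS21 and RPS27 were pairs whose copies differed.
RPS4A (chrX:703030-703064, minus strand): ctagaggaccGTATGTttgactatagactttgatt
RPS4B (chrVIII:505492-505526, minus strand): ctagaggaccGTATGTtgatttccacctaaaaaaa
RPS21A (chrXI:551671-551705, plus strand): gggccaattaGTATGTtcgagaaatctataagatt
RPS21B (chrX:157225-157259, minus strand): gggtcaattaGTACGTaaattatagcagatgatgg
RPS23A (chrVII:727029-727063, plus strand): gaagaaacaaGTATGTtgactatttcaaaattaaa
RPS13 (chrIV:579469-579503, plus strand): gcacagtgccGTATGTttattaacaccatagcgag
RPS27A (chrXI:158606-158640, plus strand): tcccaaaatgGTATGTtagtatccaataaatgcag
RPS27B (chrVIII:148642-148676, minus strand): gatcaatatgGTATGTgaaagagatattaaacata
RPS6A (chrXVI:378365-378399, minus strand): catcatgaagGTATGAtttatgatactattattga
RPS6B (chrII:592744-592778, minus strand): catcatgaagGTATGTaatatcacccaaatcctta

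The 3′ parts of RPS4 and RPS6 are shown from 5 bases before the branch motif to the end of the intron, with the branch motif and the last 3 bases in capitals. They are shown because the copies of each pair code for nearly the same protein but end in unlike introns.
RPS4A (chrX:702799-702891, minus strand): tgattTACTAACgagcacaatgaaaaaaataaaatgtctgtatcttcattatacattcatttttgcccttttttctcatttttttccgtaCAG
RPS4B (chrVIII:505248-505299, minus strand): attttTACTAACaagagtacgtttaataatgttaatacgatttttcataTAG
RPS6A (chrXVI:377996-378043, minus strand): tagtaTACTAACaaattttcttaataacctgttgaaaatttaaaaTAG
RPS6B (chrII:592417-592449, minus strand): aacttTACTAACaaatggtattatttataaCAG

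Each gene is described by an intron share and a gene level. The intron share is the number of intron reads as a percent of the gene's own reads in the same library, which needs no scaling between libraries. It is not the fraction of unspliced molecules, since intron and exons differ in length and gene reads may include intron reads. Its log2 was tested with limma over all hosts, with 0.5 added to both counts. The gene level is the read count of the gene divided by the authors' size factor. All changes below are log2 differences ± SE from these fits, and a gene was said to rise or fall when the Benjamini-Hochberg adjusted p over all hosts, or all genes, was under 0.05. The labels do not say that the 3 replicates of a group came from separate cultures, and the deposited tables head their means as technical repeats, so the p-values measure only the spread between these libraries, which may be technical. In these bulk libraries a change in all cells and a larger change in some cells cannot be told apart.

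A pair of libraries stood apart from their replicates. Replicate 3 of the Snu114 strain at 8 h had the highest intron share of its group in 25 of the 31 genes, with a median excess of 0.67 (log2) over the mean of the other 2 libraries. Replicate 1 of the Dib1 strain at 4 h was highest in 24 of 31, also with a median excess of 0.67. The same libraries were low in gene level, with median deviations of -0.67 (log2) in the Snu114 library and -0.69 in the Dib1 library. Gene by gene, the intron-share deviations of these 2 libraries ran together, with Pearson's r of 0.91 and Spearman's rho of 0.88 over the 31 genes, although no library enters both. RPS7A had deviations of 1.56 in the Snu114 library and 1.20 in the Dib1 library, while RPS27A had -0.28 and -0.46.

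**Figure D1:**
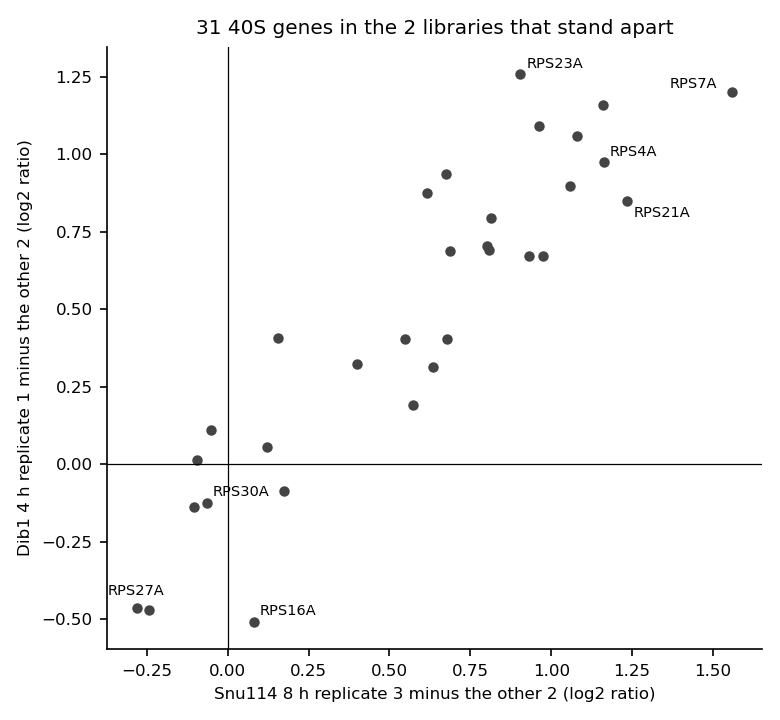
Each point is 1 of the 31 genes. The horizontal axis gives the log2 intron-to-gene ratio of Snu114 8 h replicate 3 minus the mean of the other 2 libraries of its group, the vertical axis the same for Dib1 4 h replicate 1. Most genes lie in the upper right, and RPS27A lies below 0 on both axes.

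After 4 h in glucose the summed intron share of the 40S genes was below galactose in the Snu114 strain and above it in the Dib1 strain. The summed intron reads of the 31 genes were 5.79% ± 0.662 of their summed gene reads in the Snu114 strain at 4 h and 9.01% ± 0.338 in its galactose libraries (SD, n = 3 each). For the Dib1 strain the share was 24.9% ± 6.55 at 4 h and 7.43% ± 0.680 in galactose (SD, n = 3 each). At 8 h it was above galactose in both, at 23.4% ± 6.59 in the Snu114 strain and 49.1% ± 0.868 in the Dib1 strain. The libraries of the 2 groups did not overlap in any of these comparisons with galactose. The same held for the summed shares of the 60S hosts and of the other hosts.

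**Figure D2:**
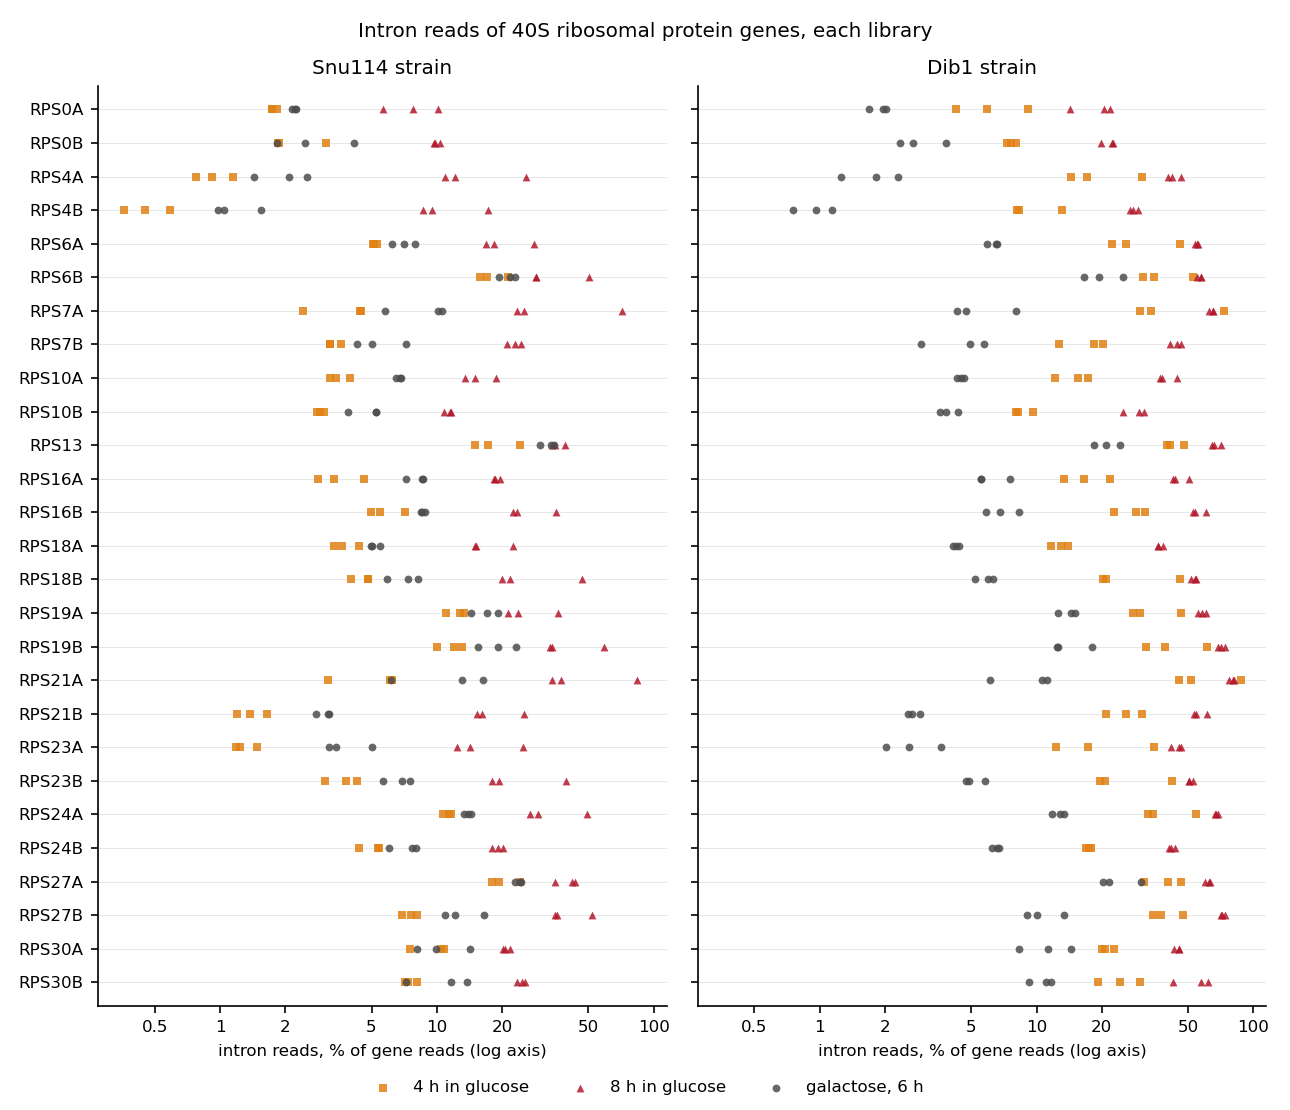
Intron reads as a percent of gene reads (log axis) for 27 of the 31 genes, with 1 mark per library. Squares are 4 h in glucose, triangles 8 h in glucose and circles galactose, with the Snu114 strain on the left and the Dib1 strain on the right. RPS4B runs from 0.359 to 17.3% in the Snu114 strain and from 0.749 to 29.5% in the Dib1 strain.

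In the Snu114 strain at 4 h, all 31 genes had a lower estimate of the intron share than in galactose, with a median change of -0.69. The fall passed the test in 10 of them, among them RPS23A, RPS4B, RPS16A, RPS21B, RPS10A, RPS13, RPS27B, RPS10B and RPS7B. Over all 258 hosts tested, 16.3% fell and 0.388% rose, with a median change of -0.31. A fit with the replicate number as a block called 18 of the 31 lower, and 29.1% of all hosts. Same-numbered libraries of these groups deviated together, but that fit also rests on the 8 h libraries, which did not all pair by number. Intron reads taken as a level had a median change of -0.05 in this comparison, with 13 of the 31 genes above 0 and 1 called, while gene reads had a median change of 0.64, with all 31 above 0. Without replicate 1 or replicate 2 of the 4 h group the count of lower shares was 5 and 3, and without replicate 1 of the galactose group it was 3.

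RPS23A, which encodes a protein at the decoding centre, had 1.48, 1.18 and 1.23% after 4 h in the Snu114 strain, against 5.02, 3.19 and 3.42% in galactose. The groups did not overlap, and the change was -1.55 ± 0.29 (limma adjusted p = 0.0078). RPS4B, which encodes a protein of the subunit's body, had 0.453, 0.359 and 0.586% at 4 h, against 1.55, 1.04 and 0.978% in galactose. Its change was -1.34 ± 0.34 (adjusted p = 0.0252), and all 4 h libraries lay below all galactose libraries.

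At 8 h in the Snu114 strain the intron share rose in 30 of the 31 genes, with a median change of 1.63, against 82.6% of all hosts with a median of 1.56. Compared with 4 h it rose in all 31, with a median of 2.17, against 84.1% of hosts with a median of 1.93. Without replicate 3, the library that stood apart, the counts were 30 and 31 and the medians 1.42 and 1.995.

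The largest rises at 8 h in this strain were those of RPS4B, RPS4A and RPS21B. RPS4B reached 8.65, 9.50 and 17.3%, above its galactose values in every library (3.27 ± 0.34, limma adjusted p = 1.8e-05). RPS4A, its paralog, had 10.9, 12.1 and 25.7% at 8 h against 2.51, 1.43 and 2.08% in galactose (2.94 ± 0.35, adjusted p = 4.0e-05). RPS21B, which encodes a small protein of the body, had 15.3, 16.2 and 25.2% at 8 h against 3.16, 2.78 and 3.20% in galactose (2.60 ± 0.23, adjusted p = 8.1e-06). In each of the 3 genes the highest 8 h value came from replicate 3.

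RPS13 was the gene that did not pass the test. Its intron share was high in every group, with 17.3, 15.03 and 24.1% at 4 h, 34.0, 35.2 and 39.1% at 8 h and 34.6, 29.9 and 33.8% in galactose. Its 8 h values overlapped those of galactose (0.14 ± 0.18, adjusted p = 0.489), while the change between 8 h and 4 h was 0.97 ± 0.18 (adjusted p = 0.00048).

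For the Dib1 strain the intron share at 4 h rose in 30 of 31 genes, with a median change of 1.73, against 85.2% of all 257 hosts and a median of 1.61. At 8 h it rose in all 31, with a median of 3.001, against 90.3% of hosts and a median of 2.55. Between 8 h and 4 h it rose in 28, with a median of 1.09, against 69.3% of hosts and a median of 0.87, and without replicate 1 of the 4 h group it rose in 31. RPS7A and RPS21A were among the 3 not past the test in this last comparison.

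The same 3 genes led the rises at 8 h in this strain. RPS4B had 13.1, 8.26 and 8.16% at 4 h, 29.5, 27.7 and 27.04% at 8 h and 1.14, 0.964 and 0.749% in galactose, with groups well apart (8 h change 4.90 ± 0.24, limma adjusted p = 3.5e-08). RPS4A had 30.8, 14.4 and 17.1% at 4 h, 42.1, 40.4 and 46.5% at 8 h and 2.30, 1.25 and 1.82% in galactose (4.63 ± 0.30, adjusted p = 1.3e-07). Its first 4 h library was far above the other 2. RPS21B had 30.7, 20.9 and 25.9% at 4 h, 53.03, 54.6 and 60.9% at 8 h and 2.90, 2.56 and 2.66% in galactose (4.37 ± 0.17, adjusted p = 2.3e-08).

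The smallest rise at 8 h was that of RPS27A, a body protein with a zinc finger. It had 31.5, 40.5 and 46.5% at 4 h, 62.2, 59.7 and 63.1% at 8 h and 21.5, 20.2 and 30.4% in galactose (8 h change 1.38 ± 0.19, limma adjusted p = 4.2e-05). Its 8 h values lay above all others.

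**Figure D3:**
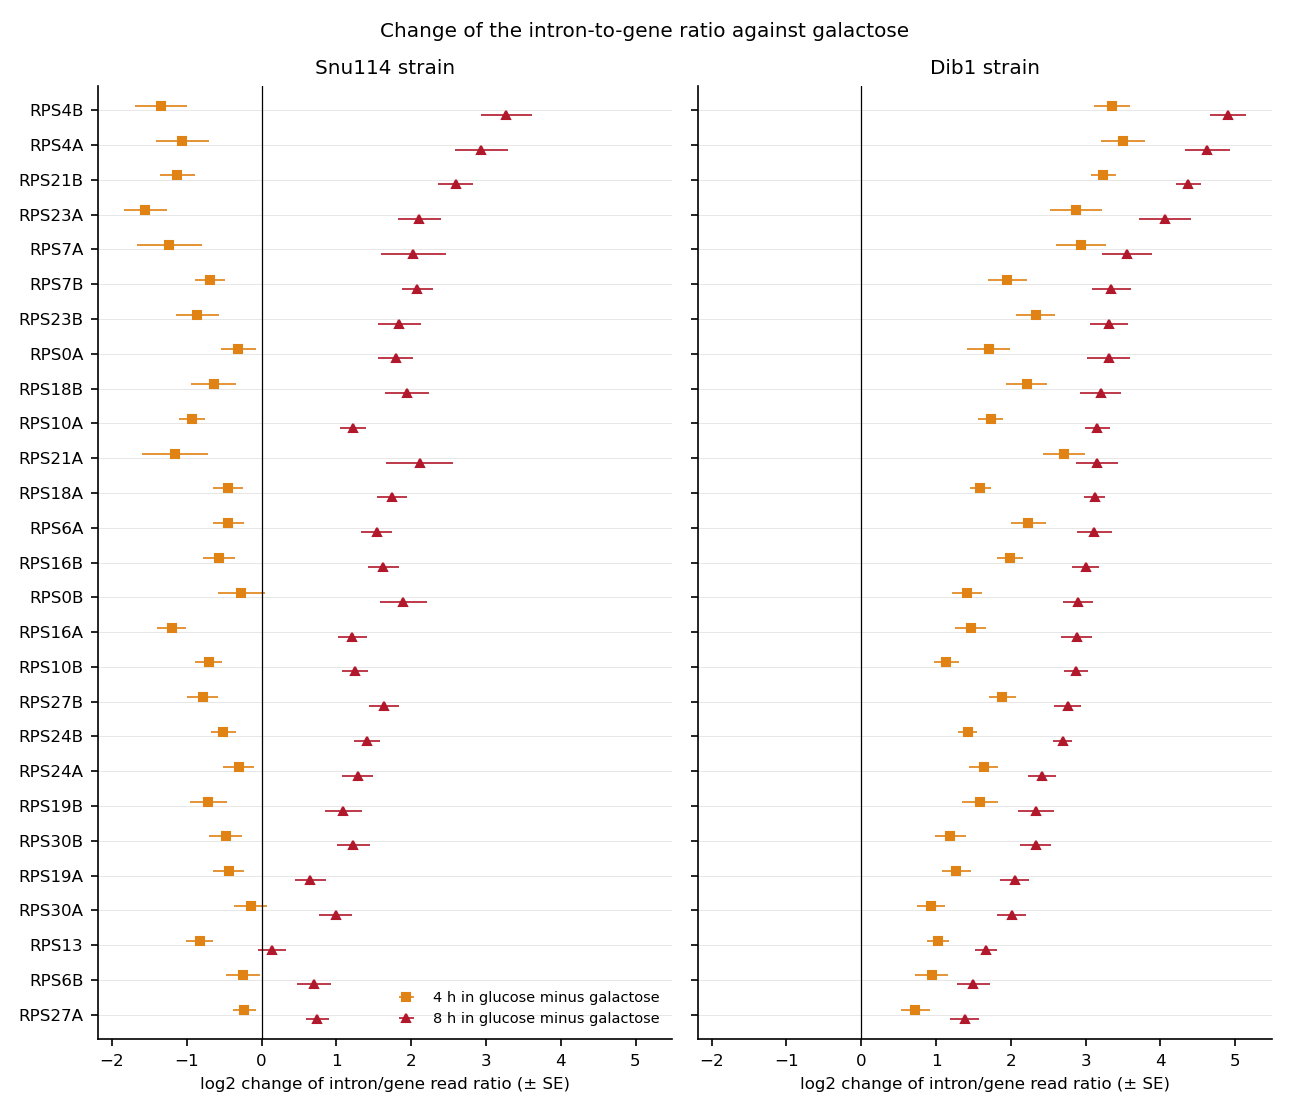
Log2 change of the intron-to-gene read ratio against galactose for 27 of the 31 genes, ordered by the 8 h change in the Dib1 strain, as limma estimates ± SE. In the Snu114 strain (left) the 4 h squares lie below 0 and the 8 h triangles above, from 0.14 for RPS13 to 3.27 for RPS4B, while in the Dib1 strain (right) both lie above 0.

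A fit of all 18 libraries tested the difference between the strains' changes, Snu114 minus Dib1. At 4 h the difference was below 0 and past the test in 30 of 31 genes, with a median of -2.56, against 82.6% of 259 hosts and a median of -1.89. At 8 h it was again past the test in 30, with a median of -1.38, against 57.9% of hosts and a median of -0.96, and the exception was RPS21A (-1.03 ± 0.57, limma adjusted p = 0.125). Without both libraries that stood apart, a setting chosen after seeing the data, the counts were 30 at 4 h and 31 at 8 h. In galactose 1 gene, RPS13, was called higher in the Snu114 strain (0.64 ± 0.16, adjusted p = 0.0407), against 3.09% of hosts called, 2.70% higher and 0.386% lower, and that call was lost without any 1 of 5 of the 6 galactose libraries.

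The genes ranked much alike in both strains, given here as a description over 31 genes and with no test. The 8 h changes of the strains, which share no library, had r = 0.95 and rho = 0.92. The log2 ratio in galactose, again from separate libraries, was at r = 0.98 and rho = 0.98 between strains. Genes with a high intron share in the galactose libraries of the Snu114 strain had the smaller changes at 8 h in the Dib1 strain (r = -0.85, rho = -0.82). RPS4B, with a galactose mean of 1.19% in the Snu114 strain, and RPS13, with 32.8%, were the ends of that range. The 8 h changes subtract galactose values that ran together between strains. Separate libraries therefore do not free the correlations of those changes from the galactose values. In the Dib1 strain the group means spanned 0.951 to 24.1% in galactose and 18.9 to 79.6% at 8 h. Intron length went with the Dib1 8 h change at r = -0.31 and rho = -0.22, and first exon length at r = 0.37 and rho = 0.61.

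By 5′ site, the median 8 h change in the Snu114 strain was 1.69 for the 22 genes with GTATGT, 1.14 for the 6 with GTACGT and 2.002 for the 3 with GTATGA. The Dib1 strain had medians of 3.06, 2.30 and 3.59 in the same order. The ranges overlapped, since RPS21B with GTACGT changed by 4.37 and RPS27A with GTATGT by 1.38 in the Dib1 strain.

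Set by place in the subunit, the 10 genes for proteins of the head (RPS10, RPS16, RPS18 and RPS19 among them) had a median 8 h change of 1.22 in the Snu114 strain, with 10 rises, and the 21 for proteins of the body had 1.84, with 20 rises. Medians in the Dib1 strain were 2.88 with 10 rises and 3.15 with 21 rises. Over all hosts 213 of 258 rose in the Snu114 strain, with a median of 1.56. In the Dib1 strain 232 of 257 hosts rose, with a median of 2.55. The head group reached up to 3.20 in the Dib1 strain, for RPS18B, and the body group ran from 1.38 for RPS27A to 4.90 for RPS4B.

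Intron reads were also taken as a level, divided by the size factors of the gene table. This level rose in 27 of 31 genes at 8 h in the Snu114 strain, against 76.3% of 253 hosts called, 73.1% higher and 3.16% lower. At 4 h it fell in 1 gene there, RPS23A (-0.99 ± 0.21, limma adjusted p = 0.0249), against 1.98% of hosts, and the fit with the replicate block called 3 lower (15.8% of hosts). Left out in turn, each library of the 4 h group and replicates 1 and 2 of the galactose group brought this count to 0, and replicate 3 of the galactose group to 2. It rose in 29 genes at 4 h in the Dib1 strain, against 79.1% of 254 hosts called (76.0% higher, 3.15% lower), and in 30 at 8 h, against 85.8% called (83.9% higher, 1.97% lower). Between 8 h and 4 h it rose in 15 in the Dib1 strain (46.9% of hosts), or in 4 without replicate 1 or 2 of the 8 h group, and in 26 in the Snu114 strain (79.1% of hosts called, 77.9% higher and 1.19% lower).

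These levels depend on the scale. The authors' intron tables carry their own size factors, and on that scale 8 genes rose and 5 fell at 8 h in the Snu114 strain, where 23.7% of hosts rose and 23.7% fell. In the Dib1 strain 9 rose and 6 fell at 8 h, against 28.7% of hosts that rose and 32.3% that fell. The estimate was above 0 on that scale in 19 and 20 of the 31 genes at 8 h in the Snu114 and Dib1 strains, and in 12 in each strain between 8 h and 4 h. In the authors' deposited table of intron comparisons, 10 of the 31 genes were higher and 7 lower at 8 h than in galactose in the Snu114 strain (24.4% and 23.3% of hosts), and 10 higher and 8 lower in the Dib1 strain (27.7% and 33.0% of hosts).

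By the medians against galactose, gene reads of the 31 genes moved far less than intron shares, except in the Snu114 strain at 4 h. There the medians were -0.69 for the intron share and 0.64 for gene reads, with all 31 gene-read estimates above 0. The rise of gene reads passed the test for 2 genes, among them RPS0A (0.70 ± 0.20, limma adjusted p = 0.0482), while 3.78% of all 6447 genes rose and 7.68% fell. The fit with the replicate block called 27 of 31 higher (10.5% of all genes), and DESeq2 called 12 (8.17%). That block fit also rests on the 8 h libraries, which did not all pair by number. Leaving out single libraries gave 0 to 5 calls, with 0 when replicate 1 or 2 of the 4 h group or any galactose library was left out and 5 without replicate 3 of the 4 h group. RPS18A, a head protein, had 22523, 29874 and 18205 normalised counts at 4 h, against 13496, 18090 and 10789 in galactose (0.74 ± 0.35, limma adjusted p = 0.203). It did not pass, although every 4 h library lay above every galactose library.

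By 8 h the gene level in the Snu114 strain was back near galactose. The median change was -0.14 with 0 calls by limma, against 8.98% of all genes, and RPS10B (-0.63 ± 0.20) was the 1 gene at an unadjusted p under 0.05 and was the 1 call by DESeq2, which called 9.21% of genes lower. Between 8 h and 4 h all 31 estimates were below 0, with a median of -0.79. The fall passed the test in 2 genes, among them RPS10B (-1.26 ± 0.20, limma adjusted p = 0.0204), against 0.667% of all genes that fell. DESeq2 called 14 lower in this comparison, and 3.08% of all genes. The limma count was 0 without replicate 1 or 2 of the 4 h group or replicate 2 of the 8 h group, and 4 without replicate 3 of the 4 h group.

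At 4 h in the Dib1 strain 0 genes changed in gene level by limma (median 0.03), against 15.2% of all genes (5.17% were higher), with 4 at an unadjusted p under 0.05 and 3 called higher by DESeq2 (10.8% of genes). Leaving out replicate 2 of the 4 h group gave 2 calls and leaving out replicate 2 of the galactose group gave 1. At 8 h 12 genes fell and none rose, with a median of -0.55, against 15.1% of all genes that fell and 13.7% that rose. Among the 12 were RPS0A, RPS4B, RPS7B, RPS10A, RPS10B, RPS16A, RPS18A, RPS24B and RPS30A. Without 1 library the count was 5 to 9, lowest at 5 and 6 without replicates 2 and 1 of the galactose group and at 7 without any 1 of the 8 h group. Between 8 h and 4 h 9 fell, against 5.79% of all genes that fell, and this count was 23 without replicate 1 of the 4 h group, 5 and 3 without its replicates 2 and 3, and 1, 1 and 3 without replicates 1, 2 and 3 of the 8 h group.

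RPS10B, a head protein near the mRNA entry channel, had the largest fall at 8 h, with 5026, 4888 and 4850 normalised counts, against 13172, 13929 and 13705 in galactose (-1.47 ± 0.20, limma adjusted p = 0.00052). RPS7B, a body protein, had 5036, 5107 and 5171 at 8 h against 9069, 10290 and 11262 in galactose (-0.99 ± 0.26, adjusted p = 0.0163). In both genes every 8 h library lay below every galactose library. Highest among the 31 was RPS27B, with 14904, 14946 and 12447 at 8 h against 8140, 11805 and 8182 in galactose, which did not pass (0.61 ± 0.25, adjusted p = 0.0977).

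**Figure D4:**
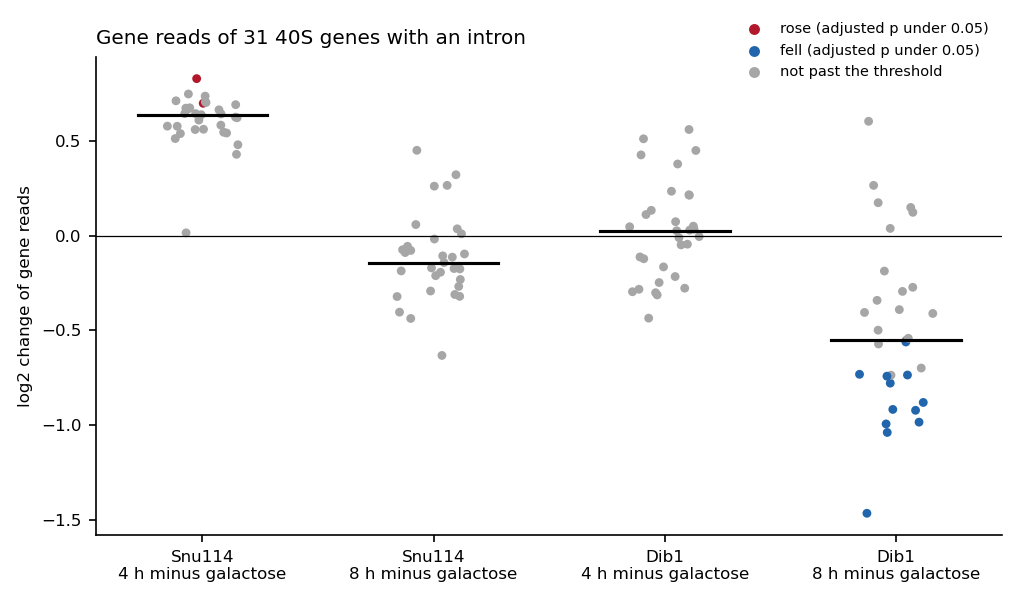
Log2 change of gene reads against galactose for the 31 genes in 4 comparisons, with 1 point per gene and a bar at the median. Red points rose and blue points fell at a limma adjusted p under 0.05, and grey points did not pass. The medians are 0.64 and -0.14 in the Snu114 strain at 4 h and 8 h and 0.03 and -0.55 in the Dib1 strain.

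Together the 31 genes took 2.86% ± 0.349 of all gene reads in the Snu114 strain at 4 h, 1.88% ± 0.317 at 8 h and 1.96% ± 0.281 in galactose, and 2.08% ± 0.343, 1.43% ± 0.0288 and 2.01% ± 0.160 in the same groups of the Dib1 strain (SD, n = 3 each). Per kilobase of coding length, RPS30A had the highest gene level of the 31 in all 6 groups, with 118646 ± 25910 normalised counts per kilobase in Snu114 galactose libraries and 124487 ± 8204 in Dib1 galactose libraries. The lowest there was RPS7A, with 15373 ± 4741 and 16663 ± 3009. RPS30A and its paralog have the shortest coding sequence of the 31, 192 bases, against reads of 151 bases. What part of the rank of RPS30A comes from that was not tested. In the authors' deposited table of gene comparisons 9 of the 31 genes were higher and 0 lower at 4 h in the Snu114 strain, where 7.51% of all genes were higher, and 0 higher and 17 lower at 8 h in the Dib1 strain, where 17.7% of all genes were lower.

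The A and B copies of a pair code for nearly the same protein, with a coding identity of 84.3 to 99.2%, but their introns are 46.9 to 53.6% identical and share no run of identical bases longer than 11, so that intron reads can be told apart. Gene reads may not, since RPS4, RPS6 and RPS24 hold identical coding runs of 158, 311 and 152 bases, at least as long as the 151-base reads, and how reads that match both copies were counted is not given in the sources used here. Gene reads of these 3 pairs, and the intron shares that rest on them, are uncertain to that extent. The difference A minus B was taken within each library and tested over 41 pairs of hosts, of which 15 are 40S pairs.

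At 8 h in the Snu114 strain the change of the intron ratio differed between copies in 2 of the 15 pairs, RPS6 and RPS27, against 17.1% of the 41 pairs. RPS27 lost its call without replicate 3 of the 8 h group, the library that stood apart, which left 1 pair. Without replicate 2 of the 8 h group or replicate 3 of the galactose group the count was 0, and without replicate 2 of the galactose group it was 1. It differed in 5 at 8 h in the Dib1 strain (among them RPS6, RPS21, RPS23 and RPS27), against 36.6% of the pairs, and in 4 at 4 h (among them RPS6, RPS7 and RPS27), 2 with the larger change in the A copy and 2 in the B copy, against 12.2% and 9.76% of the pairs. The count at 8 h was 3 without replicate 3 of the galactose group or replicate 2 of the 8 h group. The replicate block called 9 of the 15 at 4 h (51.2% of the pairs), and leaving out replicate 3 of the 4 h group gave 7. That block fit also rests on the 8 h libraries, which did not all pair by number for the ratio. At 4 h in the Snu114 strain limma called 0 of the 15, and also 0 of the 41, with 3 of the 15 at an unadjusted p under 0.05, and the block called 3 (12.2% of the pairs).

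RPS6 encodes a body protein whose phosphorylation follows TOR signalling. The RPS6A intron had 16.8, 18.3 and 28.003% at 8 h in the Snu114 strain against 7.96, 7.09 and 6.22% in galactose, and the RPS6B intron 28.6, 28.8 and 50.3% against 21.6, 19.4 and 22.8%. The B copy was thus higher in both groups, and the change was larger in the A copy by 0.84 ± 0.20 (limma adjusted p = 0.0128). For the Dib1 strain RPS6A had 55.2, 55.6 and 53.6% at 8 h against 6.52, 6.54 and 5.92% in galactose, and RPS6B 57.5, 57.4 and 55.1% against 19.4, 16.6 and 24.9%. The copies were close to each other at 8 h and apart in galactose (difference in change 1.61 ± 0.25, adjusted p = 2.0e-06).

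RPS27 differed the other way, with the smaller change in the A copy. RPS27B had 35.3, 35.8 and 51.9% at 8 h in the Snu114 strain against 16.5, 12.2 and 10.9%, and 73.9, 72.0 and 70.99% against 13.4, 10.02 and 9.03% in the Dib1 strain. RPS27A started from a higher share in galactose in both strains, and the A minus B difference was -0.89 ± 0.27 in the Snu114 strain (limma adjusted p = 0.038) and -1.38 ± 0.27 in the Dib1 strain (adjusted p = 0.00010).

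For RPS21 the difference at 8 h was -0.48 ± 0.37 in the Snu114 strain (limma adjusted p = 0.434) and -1.23 ± 0.27 in the Dib1 strain (adjusted p = 0.00030). RPS21A, the copy without TACTAAC, had 80.2, 77.1 and 81.3% at 8 h in the Dib1 strain against 11.2, 6.07 and 10.6% in galactose. Whether the strains differed in any A minus B difference was not tested. Over the 15 pairs the values of the strains at 8 h, from separate libraries, had r = 0.94 and rho = 0.93. Those values also subtract galactose in both strains, as for single genes.

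The balance of gene reads between copies shifted in more pairs than the intron ratio at 8 h, though not at 4 h. At 8 h this balance changed in 5 of the 15 in the Snu114 strain, against 31.7% of the 41 pairs. In the Dib1 strain it changed in 8, against 51.2%. Both counts were near the share over all pairs. The Snu114 count was 1 without replicate 3 of the galactose group, 2 without replicate 1 or 2 of the 8 h group and 3 without replicate 1 or 2 of the galactose group. The Dib1 count was 4 without replicate 3 of the galactose group and 5 without replicate 1 of the 8 h group. RPS7, RPS10 and RPS24 shifted towards the A copy in both strains, and RPS19 and RPS30 towards the B copy. RPS4 also shifted towards A and RPS18 towards B in the Dib1 strain. At 4 h limma called 0 of the 15 in the Snu114 strain, with 0 at an unadjusted p under 0.05 and 0 with the block, and 0 of the 41. For the Dib1 strain at 4 h it called 0 of the 15, against 7.32% of the pairs, with 3 at an unadjusted p under 0.05. The block called 6 there (39.0% of the pairs), in a fit that also rests on the 8 h libraries. Leaving out replicate 3 of the 4 h group gave 4.

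RPS7A made up 62.3% ± 4.52 of the reads of its pair at 8 h in the Snu114 strain and 49.2% ± 3.98 in galactose, a difference in change of 0.77 ± 0.18 (limma adjusted p = 0.0122). The Dib1 strain had it at 66.9% ± 0.680 at 8 h and 48.2% ± 4.95 in galactose (1.119 ± 0.26, adjusted p = 0.0070). Its level at 8 h in the Dib1 strain was 10371, 9951 and 10600 normalised counts against 8610, 11537 and 8496 in galactose, which overlap, and of the pair it was RPS7B that fell. RPS24A had 58.7% ± 3.16 of its pair at 8 h in the Snu114 strain against 48.8% ± 4.33 in galactose (0.58 ± 0.15, adjusted p = 0.0239), and 69.05% ± 0.543 against 51.04% ± 2.65 in the Dib1 strain (1.098 ± 0.13, adjusted p = 9.7e-05). RPS18A went the other way in the Dib1 strain, with 36.6% ± 1.21 at 8 h and 50.1% ± 3.18 in galactose (-0.80 ± 0.22, adjusted p = 0.0146), while in the Snu114 strain it had 43.3% ± 7.57 and 47.5% ± 2.56 (all shares SD, n = 3 each).

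**Figure D5:**
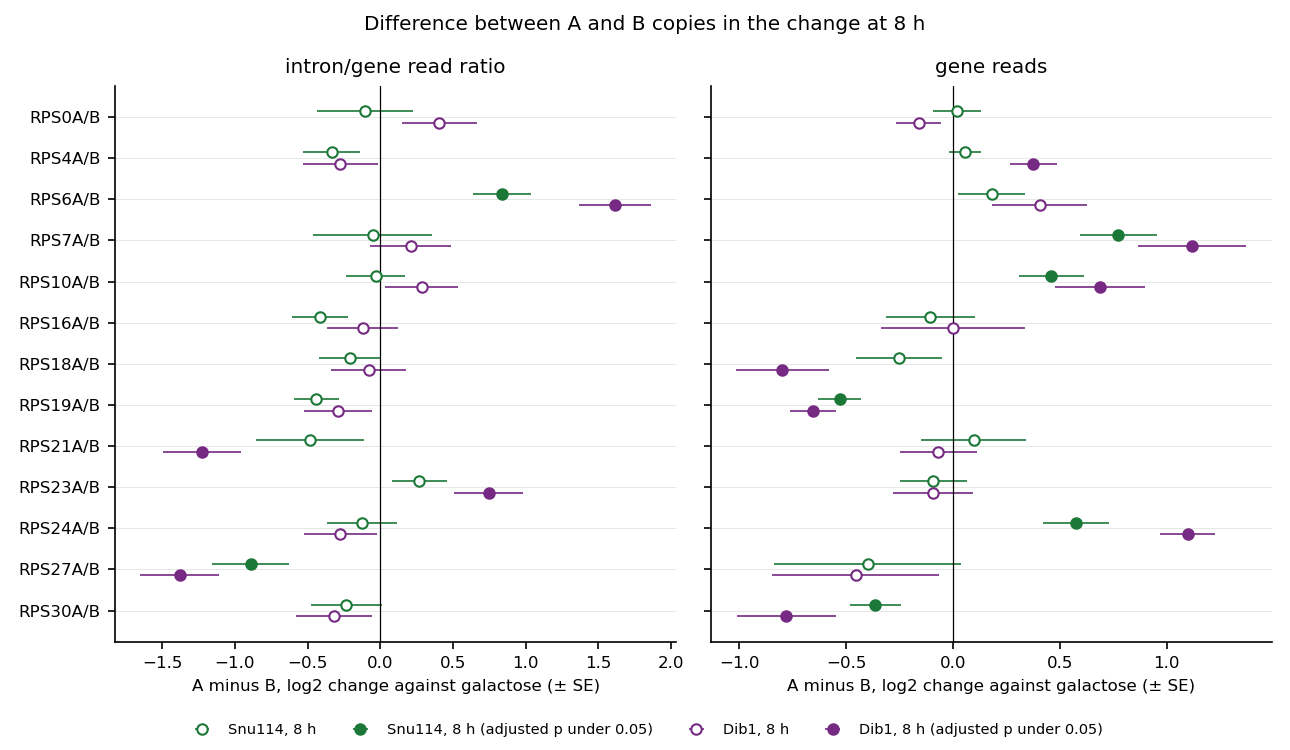
A minus B difference in the 8 h change against galactose for 13 of the 15 pairs, for the intron-to-gene ratio (left) and gene reads (right), as limma estimates ± SE. Filled circles passed at an adjusted p under 0.05. RPS6 lies furthest right and RPS27 furthest left in the ratio, with RPS7 and RPS24 furthest right in gene reads.

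Other genes of the subunit and of its making were measured for comparison. Of 20 genes for 40S proteins that have no entry in the intron tables, 0 changed at 8 h in the Snu114 strain (median 0.02) and 4 fell in the Dib1 strain (median -0.34), namely RPS26B, RPS3, RPS26A and RPS25A, against 15.1% of all genes that fell there. The largest was RPS26B, at -1.37 ± 0.18. At 4 h in the Snu114 strain the median change of the 20 genes was 0.68 with 0 calls. Over all 6447 genes 244 rose and 495 fell at 4 h in that strain, and 211 rose and 368 fell at 8 h. The 5 intron-containing 40S genes left out by the rule rose in intron share in 4 of 5 at 8 h in the Snu114 strain, where RPS14B had -0.08, and in 5 of 5 in the Dib1 strain, against 82.6% and 90.3% of all hosts.

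The 52 intron hosts of the 60S subunit had a median change of the intron share of -0.64 at 4 h and 1.75 at 8 h in the Snu114 strain, with 18 falls and 47 rises, and of 2.06 and 3.09 in the Dib1 strain, with 50 and 52 rises. Over all hosts 16.3% fell at 4 h and 82.6% rose at 8 h in the Snu114 strain, and 85.2% and 90.3% rose in the Dib1 strain. Whether the 40S and 60S introns differed was not tested.

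Of 37 tested factors of 40S assembly, RIO1, a kinase of late 40S maturation, fell at 8 h in both strains (-1.41 ± 0.24 in the Snu114 strain and -1.17 ± 0.25 in the Dib1 strain). UTP20, a protein of the early pre-ribosome, rose in the Dib1 strain (1.14 ± 0.16). RIO1 and UTP20 were the only calls of this list at 8 h. Over all genes 5.71% fell in the Snu114 strain, and 13.7% rose and 15.1% fell in the Dib1 strain. Of 12 regulators of ribosomal protein transcription 2 fell at 8 h in the Snu114 strain, against 5.71% of all genes, and 4 rose and 2 fell in the Dib1 strain, against 13.7% that rose and 15.1% that fell. CRF1, a corepressor of these genes, was the lowest at 8 h in both (-0.90 in the Snu114 strain and -1.69 in the Dib1 strain), and GCR1, an activator of glycolytic and ribosomal protein genes that itself has an intron, was the highest in the Dib1 strain (0.90).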

How the data were processed

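Poly(A) RNA was sequenced from 18 libraries, 3 in each of 6 groups. Per the submitters' processing notes, Trimmomatic, STAR, HTSeq, DESeq2 and sacCer3 were used, and versions and the strand setting are not given in the sources used here. The deposited signal values are normalised counts per gene and per intron, that is reads over a size factor, per the file headers. All values of a library were whole multiples of its smallest value within 0.001, and that value was taken as 1 read. The intron tables hold few low values, with 1 to 6 introns of a library at the smallest value and 12 to 44 at 20 steps or fewer. Were the smallest value more than 1 read there, the intron reads and shares of that library would be higher by that whole factor. The authors also deposited log2 fold changes and adjusted p-values, which were used only where named.

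The intron-to-gene ratio was log2 of intron reads over gene reads with 0.5 added to each, where gene reads averaged 20 or more. Intron levels (mean of at least 5 intron reads, on the gene scale) and gene levels were log2 of the normalised value plus 1. All were tested with limma-trend (limma 3.58.1, R 4.3.3), in 1 fit of the 9 libraries of a strain or, between strains, of all 18, with Benjamini-Hochberg adjustment at 0.05. edgeR 4.0.16 and DESeq2 1.42.0 were alternatives. Other alternatives were the pseudocounts, the filters, the scaling, the groups fitted, the replicate block and leaving out each library. The tests were tested on simulated data with known changes at 8 h and no simulated deviations shared between libraries. The outcome is not reported here.

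Genes given with values in every library were those with the largest and smallest ratio changes at 8 h, the largest falls at 4 h in the Snu114 strain, the largest gene changes, and the pairs with the largest differences between copies. RPS21A, RPS7A and RPS27B values are given with these. Values of some members are not reported here. The members and lists were chosen with earlier results of these data known.

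Same-numbered libraries deviated together, with every correlation over 0.1, between 4 h and galactose for the ratio (0.21, 0.33 and 0.29 in the Snu114 strain, 0.26, 0.47 and 0.35 in the Dib1 strain) and gene level (0.42, 0.50 and 0.32 in the Snu114 strain, 0.31, 0.63 and 0.31 in the Dib1 strain), and for the gene level in all comparisons of the Dib1 strain. There the replicate block is given where it moves a count by over 1.5 times. The block was fitted on all 9 libraries of a strain, so its replicate terms also rest on the 8 h libraries. For the ratio, and for the gene level in the Snu114 strain, the 8 h libraries did not all pair by number with the others. In gene level of the Dib1 strain, 8 h libraries also ran with unlike-numbered ones, at 0.38 for 4 h replicate 2 with 8 h replicate 1. The same-numbered replicates 1 of 4 h and 8 h had 0.12 there.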

Additional observations from a re-analysis of the deposited data

Results flagged for a closer look

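The change of the intron-to-gene ratio against galactose differed between the strains by the test of the difference itself, in the limma fit of all 18 libraries. At 4 h 30 of the 31 genes passed, with the largest differences (Snu114 minus Dib1) in RPS4B (-4.70), RPS4A (-4.56) and RPS23A (-4.42). At 8 h 30 passed as well, with the largest in RPS23A (-1.95), RPS10A (-1.94) and RPS21B (-1.78). The share of all hosts that passed was 82.6% at 4 h and 57.9% at 8 h. The strains also differ in the targeted gene, in LYS2 and in the mating-type transcripts, and the part of these in the differences was not tested.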

How the results depend on the processing

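Counts of 40S genes or pairs called are given for each setting that moved them by over 1.5 times, and the cause of a move was not tested. With the 2 compared groups fitted alone, the Snu114 strain had 16 genes with a changed ratio at 4 h (10 in the fit of all groups) and 4 at 4 h (2) and 0 between 8 h and 4 h (2) in gene level, and the Dib1 strain had 21 gene-level calls at 8 h (12), 5 between 8 h and 4 h (9) and 9 in intron level between 8 h and 4 h (15). With the replicate block, the Snu114 strain at 4 h had 18 ratio, 3 intron-level (1), 27 gene-level and 3 paralog-ratio calls (0). At 8 h, where the numbers do not pair these libraries, it had 1 gene-level (0) and 4 paralog-ratio calls (2), and 19 gene-level calls between 8 h and 4 h. In the Dib1 strain at 4 h the block gave 9 paralog-ratio calls (4) and 6 paralog gene-read calls (0). It moved no other count by over 1.5 times, except that the 1 ratio call between the strains in galactose became 0. That block fit compared the strains at the level of replicate 1, another quantity than in the main fit (median 0.07 against 0.28). The call also became 0 with edgeR, with the prior variance trended on intron reads, with the compared groups alone, and with intron reads taken off the gene reads (chosen after seeing the data). DESeq2 gave 12, 1 and 14 gene-level calls in the Snu114 strain (4 h, 8 h, and 8 h against 4 h), and 3 at 4 h and 15 between 8 h and 4 h in the Dib1 strain, while TMM scaling gave 1 at 4 h in the Snu114 strain.

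On the authors' intron scale, intron-level calls were 0 at 4 h, 13 at 8 h and 16 between 8 h and 4 h in the Snu114 strain, and 14, 15 and 0 in the Dib1 strain. On that scale the change was above 0 in 21, 19 and 12 of the 31 genes at 4 h, at 8 h and between 8 h and 4 h in the Snu114 strain, against 13, 30 and 30 on the gene scale, and in 19, 20 and 12 in the Dib1 strain, against 31, 31 and 28. Among the genes given with values in every library whose change passed the test on the gene scale, it turned negative at 8 h in the Snu114 strain for RPS27A (-0.65) and RPS10B (-0.70), and between 8 h and 4 h for RPS18A (-0.30), RPS27A (-0.67) and RPS10B (-0.86). In the Dib1 strain it turned negative at 4 h for RPS13 (-0.57), RPS18A (-0.21), RPS27A (-0.32) and RPS10B (-0.85), at 8 h for RPS13 (-0.83), RPS18A (-0.10), RPS27A (-0.70) and RPS10B (-0.83), and between 8 h and 4 h for RPS23A (-0.045). Leaving out 1 library gave, in the Snu114 strain, 3 to 12 ratio, 0 to 2 intron-level and 0 to 5 gene-level calls at 4 h, 0 to 4 gene-level calls between 8 h and 4 h, and 0 to 3 paralog-ratio and 1 to 5 paralog gene-read calls at 8 h. In the Dib1 strain it gave 0 to 2 gene-level, 3 to 7 paralog-ratio and 0 to 4 paralog gene-read calls at 4 h, 5 to 9 gene-level, 3 to 5 paralog-ratio and 4 to 8 paralog gene-read calls at 8 h, and 4 to 17 intron-level and 1 to 23 gene-level calls between 8 h and 4 h. The ratio in galactose gave 0 to 1. Single genes and pairs chosen for their large or small changes were followed through all settings where they passed the test in the main fit. Of their values, 2159 kept direction and side of the threshold, 179 kept direction only and 14 reversed. Results that did not pass in the main fit were not followed for single genes or pairs.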

Other observations

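The intron reads of the 31 genes set against the gene reads per kilobase gave another order than the plain share. At 8 h in the Dib1 strain this density ratio was lowest in RPS30A, at 19.98%, and highest in RPS4A, at 132%. The plain share was lowest in RPS0A, at 18.9%, and highest in RPS21A, at 79.6%. RPS4 is among the pairs whose gene reads may not be told apart between copies, so its density ratio is uncertain to that extent. RPS30A and its paralog have the shortest coding sequence of the 31, and what part of its rank comes from that was not tested.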
